A study of Mus musculus with 30 samples.

Results

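Hearts of 8-week-old mice (8W) were set against hearts of 4-week-old mice (4W), with all genes of the count table compared. Of the 30 heart libraries of the study, 6 entered this comparison, 3 at each age. Both groups were wild-type (WT), untreated mice, and the labels name neither a strain nor a sex. The study as a whole sampled 10 ages between embryonic day 10.5 and 8 weeks after birth, by sequencing of poly(A)-selected RNA. Nothing in the labels ties each library to a mouse of its own; the p-values therefore speak for the spread among these 6 and the other libraries, which may be technical.

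Mice are weaned near the earlier age and are sexually mature at the later one. Over this interval the heart muscle cell no longer divides and gains mass, and its contractile proteins have already passed from the fetal to the adult forms. The adult heart takes most of its energy from fatty acids, which are broken down in mitochondria by beta-oxidation and the tricarboxylic acid (TCA) cycle, and it can also burn ketone bodies, lactate and branched-chain amino acids. Fibroblasts lay down the collagen and elastic fibres of the interstitium, a task that is heaviest while the heart grows fast. Immediate early genes, many of which encode transcription factors, are switched on within minutes by growth signals, nerve input, stretch or tissue handling.

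The promoters of a few of these genes are shown first, since Fosb and Fos were among the largest falls and Ciart had the largest rise of the clock genes. Each line is the 120 bases before the transcription start in RefSeq's promoter table (build GRCm38.p6), read 5′ to 3′ on the gene's strand. Capitals mark TGACG, the core of the cAMP response element through which Fos-type genes are induced, or, for Ciart, the E-box CACGTG that the clock proteins bind. The stretches lie at chr12:85473770-85473889, plus strand (Fos), chr7:19310046-19310165, minus strand (Fosb), chr8:84978749-84978868, minus strand (Junb) and chr3:95882229-95882348, minus strand (Ciart).
Fos: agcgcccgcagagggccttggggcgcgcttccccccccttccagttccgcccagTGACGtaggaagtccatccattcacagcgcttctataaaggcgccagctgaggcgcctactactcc
Fosb: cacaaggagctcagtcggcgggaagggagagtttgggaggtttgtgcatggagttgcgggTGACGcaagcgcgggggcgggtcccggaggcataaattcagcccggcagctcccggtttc
Junb: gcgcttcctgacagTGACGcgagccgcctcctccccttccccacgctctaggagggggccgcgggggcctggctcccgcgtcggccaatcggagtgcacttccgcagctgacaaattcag
Ciart: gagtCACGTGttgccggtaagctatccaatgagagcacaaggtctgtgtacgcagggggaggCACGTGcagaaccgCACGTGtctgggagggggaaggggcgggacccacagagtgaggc

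Of the 22 immediate early genes listed, 17 had a promoter in that table, and 11 of those (64.7%) held TGACG on either strand in the 300 bases from 250 before to 50 after the start. The share over all 27025 promoters of the table was 23%. Of 16 clock genes with a promoter, 5 (31.2%) held CACGTG, which reads the same on both strands, against 2187 of all promoters (8.09%). Such a match describes letters in a window and does not show that a factor binds there.

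Library totals were 34290380, 43883680 and 41140734 counts at 8W, against 39587779, 50519452 and 38528492 counts at 4W. Heart muscle identity was plain at both ages: the summed level of 12 cardiomyocyte markers was 247000 to 266000 CPM (a gene's counts scaled to a common library total, here with TMM factors) in the 8W libraries, against 242000 to 262000 CPM in the 4W libraries. Some 4W libraries stood apart. Scgb1a1, the secretoglobin of airway club cells, had 0, 0.0756 and 0 CPM in the 8W libraries, against 41.9, 15.8 and 0 CPM in the 4W libraries. The other airway transcripts Cyp2f2 (35.8 and 8.63 CPM), Bpifb1 (26 and 5.03 CPM) and Muc5b (25.8 and 3.55 CPM) were likewise high in 4W replicates 1 and 2 and at most 0.279 CPM in the 4 other libraries. Sftpc and Sftpb, which mark alveolar cells, were at 0 in all 6. Globin transcripts took 0.13%, 0.16% and 0.17% of the counts at 8W, against 0.26%, 0.72% and 0.48% at 4W, so 4W replicate 2 was the richest in red cell RNA. Ddx3y, Eif2s3y, Kdm5d and Uty of the Y chromosome were at 0 in all 6 libraries.

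Between 4 and 8 weeks many genes moved, most of them by little. Of 19280 genes tested, 2275 rose (11.8%) and 2326 fell (12.1%) at 8W by edgeR's quasi-likelihood test at a Benjamini-Hochberg adjusted p under 0.05, which is 23.9% called in all. The middle of the distribution lay near 0, with a median log2 change (8W over 4W) of -0.03 over all genes and the middle 50% between -0.40 and 0.22. Changes of at least 2-fold were fewer and leaned downwards: 138 genes rose that much (0.716%) and 689 fell (3.57%). By the same measure, 827 genes (4.29%) moved at least 2-fold here and 1378 (7.15%) in 4W against 2W hearts, with 28.9% called at any size in that earlier comparison.

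Called genes rarely had overlapping libraries. Among the risers, 2250 (11.7% of genes tested) were higher in every 8W library than in any 4W library, and among the fallers 2169 (11.2%) were lower in every 8W library. Leaving out 4W replicate 1 left 1508 risers and 1730 fallers, the lowest counts among the 6 libraries left out in turn. Of the called genes, 1167 risers and 1134 fallers were called in all 6 of those fits. Scaling by library size alone, which shifts the median by -0.15 to -0.18, moved the split to 800 risers and 3764 fallers among the 19280 genes. List counts given below with library size alone are to be read against these totals.

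The counts were also taken without 4W replicates 1 and 2, the libraries with airway RNA, an alternative chosen after the data were seen that leaves a lone 4W library assumed to vary like the other groups. Then 511 genes rose and 706 fell. Fewer genes of most groups described below were then called, but a lone library makes calls harder, so median log2 changes are given instead. Each is set against the median with all libraries. It was 0.48 against 0.50 for fatty acid oxidation and 0.44 against 0.45 for branched-chain amino acid catabolism. For the TCA cycle it was 0.25 against 0.29, for complex I 0.27 against 0.32 and for complexes III to V 0.25 against 0.28. The median was 0.21 against 0.23 for mitochondrial ribosomal proteins, 0.32 against 0.33 for the proteasome and 0.31 against 0.40 for chaperones. It was 0.41 against 0.41 for antioxidant genes, 0.17 against 0.16 for glucose genes and 0.12 against 0.15 for regulators of metabolism. The sarcomere was at 0.07 against 0.11, calcium handling at 0.07 against 0.11 and channels at -0.01 against 0.04. Cytosolic ribosomal proteins were at 0.20 against 0.25 and the clock at 0.17 against 0.26. Of the falling groups, fibrillar collagen genes were at -0.74 against -0.67 and elastic fibre and matricellular genes at -0.38 against -0.37. Imprinted genes were at -0.42 against -0.68, immediate early genes at -0.46 against -0.53 and erythroid genes at -1.44 against -1.47. Basement membrane genes were at -0.72 against -0.70, blood endothelial markers at -0.24 against -0.30 and epicardial markers at -0.50 against -0.63. Fibroblast markers were at -0.30 against -0.35 and G2/M genes at -0.84 against -0.89. Cholesterol genes were at -0.22 against -0.20 and fatty acid synthesis genes at -0.09 against -0.24. Antigen presentation genes were at 0.64 against 0.08 and lung epithelium markers at -0.11 against -2.77. The S phase and the Schwann cell and neuron medians changed sign, at 0.14 against -0.11 and 0.12 against -0.69. Glucocorticoid response genes were at 0.22 against 0.11, interferon response genes at -0.10 against -0.25 and mural markers at -0.36 against -0.38.

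**Figure D1:**
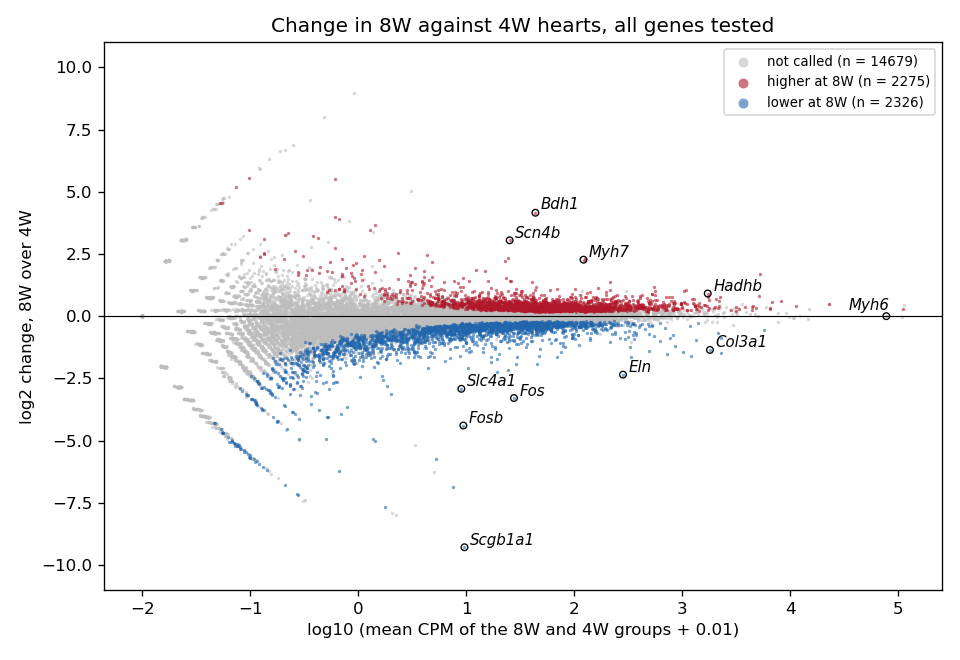
Each point is a gene, with log10 of its mean CPM over both groups on the x axis and its log2 change (8W over 4W) on the y axis; red points rose, blue points fell and grey points were not called. Large falls outnumber large rises, Bdh1 and Scn4b stand above other well-expressed genes, and Myh6, the most abundant of the labelled genes, lies at 0.

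The largest rise among well-expressed genes was that of Bdh1, the mitochondrial 3-hydroxybutyrate dehydrogenase that starts the oxidation of ketone bodies (chr16:31422280-31458901, plus strand, GRCm38). It had 77.8, 84.8 and 86.2 CPM in the 8W libraries, against 4.55, 5.93 and 3.33 CPM in the 4W libraries (log2 change 4.16 ± 0.28, adjusted p = 4.1e-10, edgeR). Every 8W library lay far above every 4W library, and at 1W and 2W its mean was lower still, at 0.504 ± 0.133 and 1.17 ± 1.22 CPM. The 12 largest rises and 12 largest falls were named only where the groups did not overlap, so their lack of overlap is no separate result.

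Scn4b, a beta subunit of voltage-gated sodium channels (chr9:45138395-45154152, plus strand), followed with 50, 39.5 and 45.8 CPM in the 8W libraries, against 5.42, 5.9 and 4.96 CPM in the 4W libraries (log2 change 3.05 ± 0.40, adjusted p = 1.3e-05, edgeR). The groups were widely separated, and the spread within each was small. The skeletal-muscle sodium channel gene Scn4a was also higher, with 85.2, 73.8 and 83.4 CPM at 8W, against 36.1, 38.5 and 42.7 CPM at 4W (log2 change 1.05 ± 0.14, adjusted p = 1.9e-06, edgeR). Cacna1s, the pore subunit of the skeletal-muscle L-type calcium channel, had 18.2, 22.1 and 17.5 CPM at 8W, against 5.56, 4.91 and 5.62 CPM at 4W (log2 change 1.85 ± 0.23, adjusted p = 6.6e-07, edgeR).

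Myh7 encodes the slow beta-myosin heavy chain, which the mouse ventricle uses before birth and largely gives up afterwards (chr14:54970684-54994626, minus strand). It was higher at 8W, with 176, 250.2 and 182 CPM in the 8W libraries, against 39.5, 44.7 and 41.6 CPM in the 4W libraries (log2 change 2.27 ± 0.23, adjusted p = 1.8e-07, edgeR). The 8W library of replicate 2 was the highest, and no 4W library came near the 8W range. Its neighbour Myh6 (chr14:54941921-54966927, minus strand), the fast alpha form that dominates in adult mouse ventricles, did not pass the test, at 75780, 79110 and 79570 CPM at 8W, against 72840, 76390 and 84670 CPM at 4W (log2 change 0.00 ± 0.11, adjusted p = 0.99, edgeR). Myh7 thus stayed a small fraction of myosin heavy chain counts at both ages; the genes are near-identical in places, and reads that fit both could be split by the counting.

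The other large rises came from varied genes. Ptgds, the lipocalin-type prostaglandin D2 synthase, had 179.9, 246 and 208 CPM at 8W, against 41.5, 55.1 and 30.9 CPM at 4W (log2 change 2.31 ± 0.31, adjusted p = 1.8e-05, edgeR). Myot, a Z-disc protein of striated muscle, had 33.1, 48.1 and 31.9 CPM at 8W, against 8.2, 8.34 and 8.06 CPM at 4W (log2 change 2.20 ± 0.20, adjusted p = 5.5e-09, edgeR). The groups of both genes did not overlap, as the naming rule required.

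Armc2, an armadillo repeat protein needed for the mouse sperm tail, was 40.9 ± 6.84 CPM at 8W, against 8.09 ± 0.658 CPM at 4W (SD, n = 3, log2 change 2.34 ± 0.24). Gbp6, an interferon-inducible guanylate-binding protein, was 34.3 ± 2.97 CPM at 8W, against 12 ± 3.09 CPM at 4W (1.52 ± 0.24). The DNA repair genes Polq, which encodes DNA polymerase theta, and Shld1, which encodes a shieldin subunit, changed by 1.43 ± 0.25 and 1.43 ± 0.16. Cxcl14, a chemokine, averaged 11.2 ± 0.965 CPM at 8W, against 4.16 ± 0.576 CPM at 4W (1.43 ± 0.31). Adjusted p-values of these 5 genes ran from 9.0e-08 to 0.0011 (edgeR). Myot, Cacna1s, Armc2 and Shld1 were highest in 8W replicate 2.

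**Figure D2:**
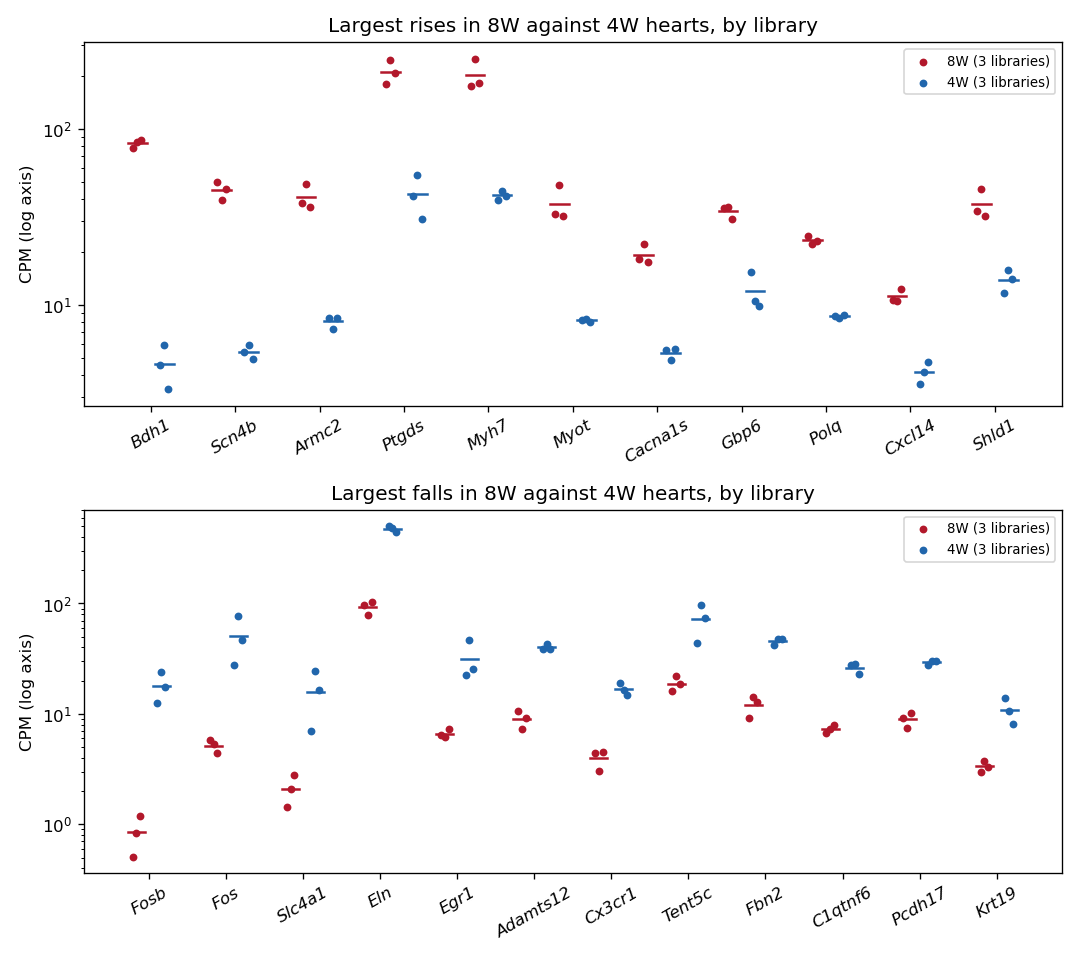
CPM (log axis) of 11 of the 12 largest rises (upper panel) and of the 12 largest falls (lower panel) among genes chosen by the naming rule, by library, with red 8W points left of blue 4W points and a bar at each mean. The naming rule admits only genes whose groups do not overlap. The 4W points of Fos, Slc4a1 and Tent5c spread widest, with replicate 2 on top.

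Some genes of the contractile apparatus rose. Of 20 adult sarcomere genes tested, 7 rose (35%, against 11.8% of all genes) and 0 fell (median log2 change 0.11, against -0.03 over all genes). Without 8W replicate 2, 2 rose. With library size alone 3 rose, and the median was -0.05, against -0.18 over all genes. Lmod2, a leiomodin that seeds thin filaments, had 450, 432 and 421 CPM at 8W, against 243, 259 and 249 CPM at 4W (log2 change 0.80 ± 0.14, adjusted p = 1.7e-04, edgeR). Myl2, the ventricular regulatory light chain, had 8013, 8108 and 8114 CPM at 8W, against 5383, 5280 and 5815 CPM at 4W (log2 change 0.56 ± 0.09, adjusted p = 5.0e-05, edgeR). Both were separated by far more than the spread within an age. 

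Among 13 tested genes of the fetal and stress program, 3 rose (23.1%) and 2 fell (15.4%), against 11.8% and 12.1% of all genes. In each of the 6 fits that left out a library 2 rose, and 1 fell without 8W replicate 1. Beside Myh7, Ankrd1, a stretch-responsive ankyrin repeat protein, rose, with 666, 679 and 712 CPM at 8W, against 413, 359.8 and 335 CPM at 4W (log2 change 0.89 ± 0.23, adjusted p = 0.0075, edgeR). Acta2, the smooth muscle actin that embryonic heart muscle also makes, fell, with 433, 256 and 438 CPM at 8W, against 1078, 994 and 1116 CPM at 4W (log2 change -1.50 ± 0.17, adjusted p = 5.1e-07, edgeR), and 8W replicate 2 was the lowest. The natriuretic peptide gene Nppa had 1686, 1533 and 1934 CPM at 8W, against 1619, 1651 and 1791 CPM at 4W and overlapping groups. Nppb, the B-type peptide, had 174, 127 and 169 CPM at 8W, against 82.9, 85.6 and 64.2 CPM at 4W; its groups did not overlap, but edgeR's adjusted p was 0.063.

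Of 27 potassium and sodium channel genes, 6 rose (22.2%) and 5 fell (18.5%), at a median of 0.04, against 11.8% and 12.1% of all genes; 3 fell without 8W replicate 1, and 10 with library size alone. Kcnip2, a subunit of the transient outward potassium channel, had 200.3, 205 and 194 CPM at 8W, against 115, 120 and 119 CPM at 4W (log2 change 0.76 ± 0.14, adjusted p = 4.2e-04, edgeR). Kcne1, the small subunit of the slow delayed rectifier, had 11.3, 10.1 and 10.4 CPM at 8W, against 26.5, 23.6 and 29.7 CPM at 4W (log2 change -1.32 ± 0.11, adjusted p = 2.7e-10, edgeR). The pacemaker channel Hcn4 had 11.2, 13.2 and 14.8 CPM at 8W, against 21.1, 20 and 21.9 CPM at 4W, and the rapid delayed rectifier Kcnh2 had 96.1, 89.7 and 109 CPM at 8W, against 124, 130.4 and 141 CPM at 4W, both lower at 8W in every library (log2 changes -0.68 ± 0.18 and -0.42 ± 0.09).

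Of 21 calcium-handling genes, 4 rose (19%) and 3 fell (14.3%), shares not far from those over all genes (median 0.11). Without 8W replicate 2, 8W replicate 3, 4W replicate 1 or 4W replicate 2, 2 rose. With library size alone 0 rose and 5 fell, where 800 and 3764 of all 19280 genes did. The calcium pump Atp2a2 had 26390, 28080 and 26040 CPM at 8W, against 18740, 19540 and 19280 CPM at 4W (log2 change 0.48 ± 0.12, adjusted p = 0.0035, edgeR), and its inhibitor phospholamban, Pln, had 4695, 5350 and 4967 CPM at 8W, against 3732, 3874 and 3974 CPM at 4W (log2 change 0.38 ± 0.10, adjusted p = 0.0062, edgeR); with library size alone their adjusted p-values were 0.08 and 0.14. Casq1, the calsequestrin of fast skeletal muscle, fell to 20.7, 22.7 and 27.5 CPM at 8W, against 73.7, 72.9 and 68.2 CPM at 4W (log2 change -1.60 ± 0.22, adjusted p = 2.3e-05, edgeR). The inositol trisphosphate receptor Itpr2 fell by 0.34 on the log2 scale (adjusted p = 0.0012, edgeR).

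Most genes of fatty acid oxidation rose. Of 32 tested, 25 rose (78.1%) and 2 fell, with a median log2 change of 0.50, and 21 to 25 rose when any library was left out. The fallers were Angptl4 and Fabp4; 0 members fell without 8W replicate 3 or without 4W replicate 1. Hadhb and Hadha, the subunits of the mitochondrial trifunctional protein, had 2320, 2331 and 2127 CPM at 8W, against 1213, 1266 and 1122 CPM at 4W (Hadhb, log2 change 0.91 ± 0.09, adjusted p = 4.7e-09, edgeR), and 2124, 2316 and 2105 CPM at 8W, against 1383, 1404 and 1408 CPM at 4W (Hadha, log2 change 0.64 ± 0.07, adjusted p = 1.8e-07, edgeR). In both genes the lowest 8W library exceeded the highest 4W library by more than the spread of either age.

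Genes of fatty acid uptake and activation were among the risers. Lpl, the lipase that frees fatty acids from lipoproteins, had 6016, 7362 and 6276 CPM at 8W, against 3626, 3786 and 3740 CPM at 4W (log2 change 0.82 ± 0.10, adjusted p = 3.1e-07, edgeR). Fabp3, the heart fatty acid-binding protein, had 2432, 2622 and 2521 CPM at 8W, against 1670, 1568 and 1445 CPM at 4W (log2 change 0.69 ± 0.10, adjusted p = 7.2e-06, edgeR). The carnitine shuttle genes Cpt1b and Cpt2 were 1144 ± 98.6 CPM at 8W, against 806 ± 12.8 CPM at 4W (Cpt1b), and 316 ± 18 CPM at 8W, against 205 ± 7.09 CPM at 4W (Cpt2; SD, n = 3, log2 changes 0.51 ± 0.09 and 0.62 ± 0.08). The acyl-CoA dehydrogenases Acadm and Acadvl changed by 0.55 ± 0.08 and 0.53 ± 0.08, and Decr1, which handles unsaturated chains, by 0.67 ± 0.10.

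Pdk4 encodes a kinase that inhibits the pyruvate dehydrogenase complex. It had 640.4, 1028 and 569 CPM at 8W, against 408, 375 and 331 CPM at 4W (log2 change 1.01 ± 0.19, adjusted p = 4.8e-04, edgeR). Replicate 2 stood highest of the 8W libraries, and the 4W libraries were all below the lowest 8W value. The mean of Pdk4 at 2W was 1144 ± 314 CPM (SD, n = 3), above every 8W library.

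Catabolism of branched-chain amino acids rose almost as a whole list. Of 21 members tested, 19 rose (90.5%) and 0 fell (median 0.45), with 17 to 20 risers when each library was left out. Bckdha and Bckdhb form the catalytic core of the branched-chain ketoacid dehydrogenase. They had 278, 295 and 271 CPM at 8W, against 162, 168 and 184 CPM at 4W (Bckdha, log2 change 0.72 ± 0.11, adjusted p = 1.6e-05, edgeR), and 50.8, 51.2 and 52.7 CPM at 8W, against 30.9, 31.9 and 32.8 CPM at 4W (Bckdhb, log2 change 0.69 ± 0.11, adjusted p = 4.2e-05, edgeR). Neither gene's groups came close to each other.

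The transaminase Bcat2, which opens the pathway in mitochondria, changed by 0.58 ± 0.11, and the dehydrogenase component Dbt by 0.53 ± 0.10. Downstream, Ivd of the leucine branch changed by 0.60 ± 0.10 and Aldh6a1 of the valine branch by 0.67 ± 0.10 (adjusted p between 1.0e-05 and 0.0003 for these 4, edgeR).

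Many genes of the TCA cycle rose, and fewer of the respiratory chain passed the test. Of 22 TCA cycle and pyruvate dehydrogenase genes, 16 rose and 0 fell (median 0.29); 10 rose without 4W replicate 1 and 4 with library size alone. Idh2, the mitochondrial NADP-linked isocitrate dehydrogenase, had 2134, 2399 and 2119 CPM at 8W, against 1243, 1301 and 1351 CPM at 4W (log2 change 0.77 ± 0.08, adjusted p = 2.7e-08, edgeR). Suclg2, the GTP-forming subunit of succinyl-CoA ligase, had 246, 266 and 234 CPM at 8W, against 151, 149.7 and 156 CPM at 4W (log2 change 0.71 ± 0.07, adjusted p = 2.2e-08, edgeR). Both had tight, separate groups, and Mdh1, the cytosolic malate dehydrogenase, changed by 0.39 ± 0.09.

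Of 36 nuclear genes of complex I, 17 rose and 0 fell (median 0.32), and all 36 had a positive change. This count was 8 without 4W replicate 1 and 5 with library size alone. Of 38 nuclear genes of complexes III to V, 12 rose and 0 fell (median 0.28), with 5 risers without 4W replicate 1 and 1 with library size alone. The ATP synthase subunit gene Atp5c1 was 1286 ± 28.9 CPM at 8W, against 919 ± 47.9 CPM at 4W (SD, n = 3, log2 change 0.48 ± 0.09), and the complex I subunit gene Ndufa1 changed by 0.55 ± 0.13.

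Of the 13 protein genes of mitochondrial DNA, only mt-Co1 passed the test, which it failed without 8W replicate 1, 4W replicate 1 or 4W replicate 2. Together they took 10.2%, 9.83% and 9.76% of the counts at 8W, against 9.47%, 9.51% and 9.34% at 4W. The difference of 0.49 percentage points had an exact 2-sided permutation p of 0.1, the smallest that 3 libraries against 3 allow. All mt- genes together, ribosomal RNA genes included, took 18.87%, 18.89% and 19.18% at 8W, against 16.89%, 17.3% and 16.69% at 4W, a difference of 2.03 points with the same exact p of 0.1.

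Glucose genes changed less widely: of 22, 7 rose (31.8%) and 1 fell (4.55%), against 11.8% and 12.1% of all genes (median 0.16), and 4 rose with library size alone. The insulin-responsive glucose transporter Slc2a4 had 461, 451 and 489 CPM at 8W, against 307, 323 and 305 CPM at 4W (log2 change 0.58 ± 0.10, adjusted p = 7.3e-05, edgeR), and hexokinase Hk2 had 796, 786 and 805 CPM at 8W, against 521, 519.5 and 563 CPM at 4W (log2 change 0.57 ± 0.11, adjusted p = 3.4e-04, edgeR). Ldhb, the lactate dehydrogenase subunit of oxidative muscle, changed by 0.46 ± 0.08. Pfkp, the platelet-type phosphofructokinase, was the member that fell, by 0.37 on the log2 scale (adjusted p = 0.005, edgeR).

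Among 18 transcriptional regulators of metabolism, 7 rose (38.9%) and 2 fell (11.1%), against 11.8% and 12.1% of all genes (median 0.15). In 5 of the 6 fits that left out a library 1 fell, the exception being 4W replicate 1. Ppargc1a, the coactivator PGC-1alpha, had 257, 306 and 233 CPM at 8W, against 159.8, 184 and 166 CPM at 4W (log2 change 0.64 ± 0.11, adjusted p = 5.6e-05, edgeR). Klf15, a Krüppel-like factor that governs lipid and amino acid use, had 85.6, 91.1 and 75.8 CPM at 8W, against 49, 55.6 and 52 CPM at 4W (log2 change 0.69 ± 0.13, adjusted p = 2.1e-04, edgeR). The nuclear receptors Ppara and Esrrb and the muscle regulator Perm1 changed by 0.54 ± 0.12, 0.54 ± 0.14 and 0.52 ± 0.09. Nr2f2, a nuclear receptor of atrial muscle and of veins, fell, with 10.2, 11.2 and 9.57 CPM at 8W, against 14.2, 15.5 and 14.9 CPM at 4W. 

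Many genes of protein quality control rose as well. Of 29 proteasome genes, 19 rose and 0 fell (median 0.33), against 5 risers with library size alone, and 14 or 15 rose when a library was left out. Psmb4 and Psmc1 changed by 0.47 ± 0.11 and 0.45 ± 0.07. Of 29 chaperone and unfolded protein response genes, 18 rose and 0 fell (median 0.40), against 10 risers with library size alone. Hspa8, the constitutive heat shock protein 70, had 2702, 3005 and 2704 CPM at 8W, against 1584, 1675 and 1690 CPM at 4W (log2 change 0.77 ± 0.09, adjusted p = 3.6e-07, edgeR), and Herpud1, of the endoplasmic reticulum stress response, had 304, 351 and 264 CPM at 8W, against 165, 183 and 178 CPM at 4W (log2 change 0.81 ± 0.12, adjusted p = 1.1e-05, edgeR). Hsph1 and the small heat shock protein Hspb8 changed by 0.67 ± 0.10 and 0.61 ± 0.13.

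Of 31 antioxidant and detoxification genes, 17 rose and 1 fell (median 0.41). The faller, the heme oxygenase Hmox1, lost its call without any of the 3 8W libraries and without 4W replicate 1 or 2. Ces1d, a carboxylesterase, had 237, 221 and 229 CPM at 8W, against 98.9, 104 and 112 CPM at 4W (log2 change 1.13 ± 0.16, adjusted p = 1.9e-05, edgeR), and Nqo1, a quinone reductase, had 49.3, 57.2 and 50.5 CPM at 8W, against 29.2, 31.5 and 29.9 CPM at 4W (log2 change 0.79 ± 0.14, adjusted p = 1.2e-04, edgeR). Gpx4, which protects membranes from lipid peroxides, was 588 ± 9.93 CPM at 8W, against 353 ± 10.7 CPM at 4W, and the glutathione transferase Gstm2 was 119 ± 3.27 CPM at 8W, against 72.3 ± 5.01 CPM at 4W (SD, n = 3). Of 30 mitochondrial ribosomal protein genes, 14 rose and 0 fell, but 7 rose without 8W replicate 3 or 4W replicate 1 and 4 with library size alone. Of 45 cytosolic ribosomal protein genes, 6 rose (13.3%, against 11.8% of all genes) and 0 fell. Without 8W replicate 1, or with library size alone, 1 rose.

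Most extracellular matrix genes fell. In whole tissue, fewer cells of a type and less RNA per cell cannot be told apart, and this holds for each cell-type statement below. Of 17 basement membrane genes tested, 15 fell (88.2%) and 0 rose, with a median log2 change of -0.70, and 15 fell whichever library was left out. Of 29 fibrillar collagen and collagen-processing genes, 21 fell (72.4%) and 2 rose (median -0.67). Of 25 elastic fibre and matricellular genes, 15 fell and 0 rose (median -0.37).

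Eln, which encodes the elastin monomer tropoelastin (chr5:134702593-134747323, minus strand), had 97.2, 79.1 and 103 CPM in the 8W libraries, against 498, 482 and 443 CPM in the 4W libraries (log2 change -2.35 ± 0.21, adjusted p = 5.8e-08, edgeR). The 6 values formed separate clusters, with little spread in either. Fbn2, the fibrillin of developing microfibrils, had 9.21, 14.2 and 12.8 CPM at 8W, against 42.4, 47.2 and 48.1 CPM at 4W (log2 change -1.92 ± 0.12, adjusted p = 1.4e-13, edgeR). Mfap2, a microfibril-associated glycoprotein, had 1.62, 1.74 and 2.11 CPM at 8W, against 4.04, 5.23 and 4.14 CPM at 4W, and the crosslinking lysyl oxidase Lox had 9.39, 9.34 and 6.9 CPM at 8W, against 22.1, 21.2 and 17.8 CPM at 4W (log2 changes -1.30 ± 0.16 and -1.26 ± 0.15). The matricellular genes Tnc and Postn, which encode tenascin C and periostin, changed by -1.38 ± 0.19 and -0.92 ± 0.21.

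Collagens I and III form the bulk of the fibrillar network of the heart. Col1a1 had 269, 259 and 298 CPM at 8W, against 748, 728 and 682 CPM at 4W (log2 change -1.39 ± 0.14, adjusted p = 2.2e-08, edgeR), and Col3a1 had 1052, 906 and 1104 CPM at 8W, against 2625, 2615 and 2582 CPM at 4W (log2 change -1.35 ± 0.10, adjusted p = 3.5e-11, edgeR). Sparc, a collagen-binding matricellular protein, had 537, 493 and 559 CPM at 8W, against 1172, 1231 and 1201 CPM at 4W (log2 change -1.18 ± 0.11, adjusted p = 1.2e-09, edgeR). All 3 genes had every 8W library below every 4W library. Col11a1, a minor fibrillar collagen, was low at both ages, at 0.788 ± 0.282 CPM at 8W, against 2.5 ± 0.494 CPM at 4W (SD, n = 3, log2 change -1.61 ± 0.22). The 2 risers of the list, the prolyl 4-hydroxylases P4ha1 and P4ha2, changed by 0.50 ± 0.12 and 0.46 ± 0.10, with adjusted p-values of 0.074 and 0.053 with library size alone.

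In the basement membrane, Col4a1 had 1677, 1539 and 1573 CPM at 8W, against 2824, 2992 and 3048 CPM at 4W (log2 change -0.89 ± 0.12, adjusted p = 2.7e-06, edgeR), and Col4a3 had 21.6, 19.5 and 21.3 CPM at 8W, against 42.6, 42.9 and 44.4 CPM at 4W (log2 change -1.06 ± 0.17, adjusted p = 2.8e-05, edgeR). The laminin chain Lamc1 was 622 ± 15.8 CPM at 8W, against 1041 ± 11.1 CPM at 4W, and the linker nidogen 2, Nid2, was 47.1 ± 6.86 CPM at 8W, against 87.8 ± 0.89 CPM at 4W (SD, n = 3, log2 changes -0.74 ± 0.12 and -0.90 ± 0.12). Among the largest falls of all genes, the secreted protease Adamts12 had 10.6, 7.33 and 9.25 CPM at 8W, against 38.9, 42.6 and 38.6 CPM at 4W (log2 change -2.15 ± 0.12, adjusted p = 1.0e-13, edgeR), and C1qtnf6, a secreted C1q-like protein, had 6.66, 7.33 and 7.9 CPM at 8W, against 27.5, 28.2 and 23.2 CPM at 4W (log2 change -1.85 ± 0.11, adjusted p = 1.4e-13, edgeR). The groups of Adamts12 and of C1qtnf6 did not overlap, as the naming rule required. Pcdh17, a protocadherin, averaged 9.01 ± 1.42 CPM at 8W, against 29.3 ± 1.44 CPM at 4W (-1.71 ± 0.12).

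Of 15 fibroblast markers, 9 fell and 1 rose (median -0.35), and 5 of the fallers are matrix genes counted above (Col1a1, Col1a2, Col3a1, Lum and Mfap5). The riser, Gsn, was called in 0 of the 6 fits that left out a library. Other well-known fibroblast genes did not pass the test. Dcn, the abundant proteoglycan decorin, had 731, 770.1 and 751 CPM at 8W, against 715, 755 and 710.5 CPM at 4W (log2 change 0.05 ± 0.12, adjusted p = 0.81, edgeR), and Pdgfra, the receptor that marks the lineage, had 168, 169 and 163 CPM at 8W, against 178, 187 and 155 CPM at 4W (log2 change -0.06 ± 0.11, adjusted p = 0.76, edgeR). The groups of both overlapped.

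Of 21 imprinted growth genes, 9 fell and 1 rose (median -0.68), and 9 or 10 fell when a library was left out. The riser, Peg10, lost its call without 8W replicate 1, 8W replicate 2, 4W replicate 2 or 4W replicate 3. Of 22 genes of the insulin-like growth factor and growth hormone axis, 4 fell (18.2%) and 2 rose (9.09%), at a median of -0.05. Over all genes, 12.1% fell and 11.8% rose. Of the axis, 2 genes fell without 8W replicate 1, 1 rose without 8W replicate 2 and 0 rose with library size alone. Igf2, the fetal insulin-like growth factor, had 38.4, 41.5 and 42.6 CPM at 8W, against 105, 109 and 114 CPM at 4W (log2 change -1.42 ± 0.11, adjusted p = 3.9e-11, edgeR), and H19, the noncoding RNA of the same locus, had 45.5, 42.9 and 55.3 CPM at 8W, against 108, 103 and 116 CPM at 4W (log2 change -1.19 ± 0.10, adjusted p = 6.1e-10, edgeR). Mest, a paternally expressed gene, had 8.84, 6.84 and 8.93 CPM at 8W, against 23.2, 27.5 and 25.8 CPM at 4W (log2 change -1.64 ± 0.15, adjusted p = 1.1e-08, edgeR). Each of the 3 was lower in all 8W libraries by several times the spread of the group. Plagl1 and Meg3 changed by -1.08 ± 0.10 and -0.78 ± 0.19. Igf1, the growth factor of postnatal life, had 17.2, 17.4 and 20.6 CPM at 8W, against 38.4, 45 and 36.3 CPM at 4W (log2 change -1.12 ± 0.10, adjusted p = 3.8e-09, edgeR).

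Proliferation genes were low at both ages. Of 26 genes of the G2/M phase, 4 fell (15.4%, against 12.1% of all genes) and 0 rose at a median of -0.89. Without 8W replicate 2 the number of fallers was 0, with library size alone it was 7, and fitted on the 6 libraries alone it was 17. Over all genes, 3764 of 19280 fell with library size alone and 2980 of 15470 in the fit of the 6 libraries. Mki67 had 6.66, 4.61 and 5.38 CPM at 8W, against 16.1, 13.1 and 13.4 CPM at 4W (log2 change -1.36 ± 0.37, adjusted p = 0.011, edgeR), and its adjusted p was 0.052 without 8W replicate 2. Of 26 S phase genes, 1 fell, Tyms (3.85%, against 12.1% of all genes), and without 4W replicate 1 0 fell.

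Immediate early genes fell, some of them steeply. Of 22 tested, 11 fell and 2 rose (median -0.53), and 9 to 11 fell when a library was left out, fewest without 4W replicate 2. Fosb, whose promoter is shown above, had 0.509, 0.832 and 1.2 CPM in the 8W libraries, against 12.4, 23.9 and 17.6 CPM in the 4W libraries (log2 change -4.39 ± 0.44, adjusted p = 6.6e-08, edgeR). Fos had 5.83, 5.29 and 4.39 CPM at 8W, against 27.7, 76.7 and 46.3 CPM at 4W (log2 change -3.29 ± 0.32, adjusted p = 1.7e-07, edgeR), and Egr1, a zinc finger factor, had 6.38, 6.2 and 7.34 CPM at 8W, against 22.4, 46.8 and 25.7 CPM at 4W (log2 change -2.25 ± 0.26, adjusted p = 1.2e-06, edgeR). In all 3 genes every 8W library lay below every 4W library, which the naming rule required, and 4W replicate 2 was the highest of the 6.

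Junb had 16.7, 14.4 and 13.4 CPM at 8W, against 27.1, 48 and 31.4 CPM at 4W, and Ier2 had 10.4, 9.3 and 8.93 CPM at 8W, against 16.6, 24.9 and 19.7 CPM at 4W (log2 changes -1.26 ± 0.17 and -1.10 ± 0.12). Zfp36, which destabilises inflammatory mRNAs, had 20.9, 26 and 23.8 CPM at 8W, against 45.7, 59.2 and 46.2 CPM at 4W (log2 change -1.10 ± 0.13, adjusted p = 4.4e-07, edgeR). Jun had 76.6, 95.5 and 68.9 CPM at 8W, against 104, 166 and 135 CPM at 4W (log2 change -0.75 ± 0.14, adjusted p = 3.1e-04, edgeR), and Dusp1, a phosphatase of the glucocorticoid list that also answers growth signals, had 67, 62.5 and 55.6 CPM at 8W, against 95.5, 133 and 96.2 CPM at 4W (log2 change -0.81 ± 0.14, adjusted p = 1.8e-04, edgeR). The order within 4W, with replicate 2 on top, was the same in these 5 genes. The 2 risers were Ier3 and Nr4a3, and Nr4a3 was called in 1 of the 6 fits that left out a library. 

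Globin and red cell transcripts followed the same order among the 4W libraries, and their part in these falls was not tested. Without 4W replicate 2, the log2 changes were -2.84 for Fos and -4.13 for Fosb. Neither the hour of death nor the handling of the tissue is in the labels, and their part in these falls and in the changes of clock genes was not tested.

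**Figure D3:**
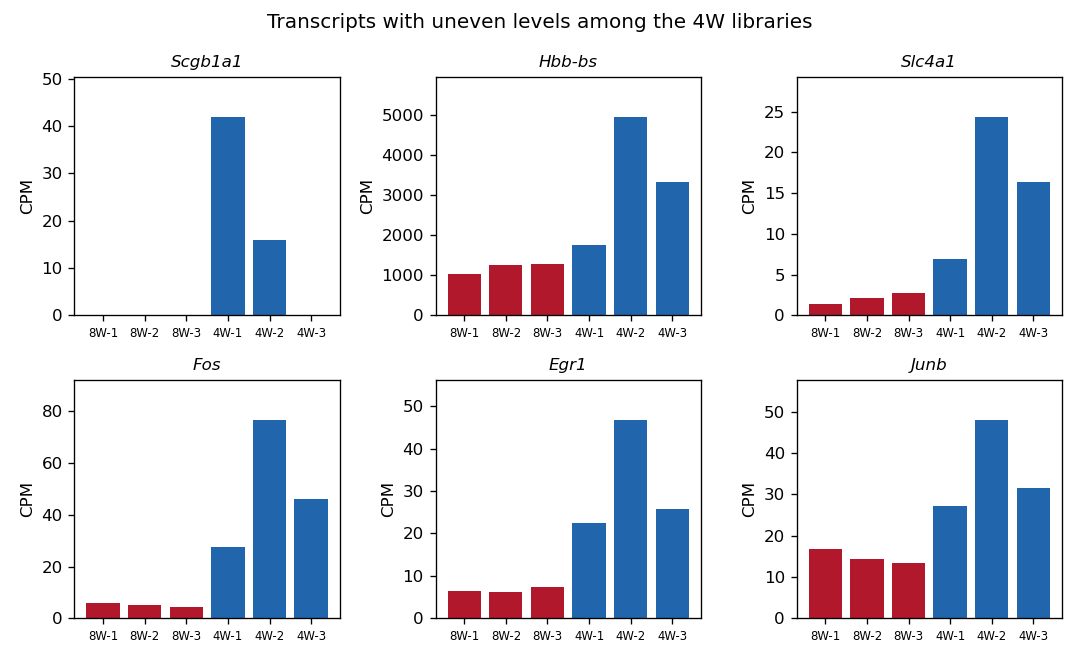
Bars give CPM in each of the 6 libraries (8W replicates 1 to 3 in red, 4W replicates 1 to 3 in blue) for an airway gene (Scgb1a1), red cell genes (Hbb-bs and Slc4a1) and immediate early genes (Fos, Egr1 and Junb). Scgb1a1 is present in 4W replicates 1 and 2 only, apart from 0.0756 CPM in 8W replicate 2, while in the 5 other panels 4W replicate 2 is the highest bar.

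The circadian clock turns over daily in heart muscle. Of 19 clock genes tested, 9 rose (47.4%) and 2 fell (10.5%), against 11.8% and 12.1% of all genes (median 0.26). There were 6 to 9 risers when each of the 6 libraries was left out and 5 with library size alone. Of the fallers, 1 was left in 5 of those 6 fits, all but the fit without 8W replicate 1. Ciart, a repressor of the clock with 3 E-boxes in the stretch shown above, had 1.34, 2 and 1.79 CPM at 8W, against 0.541, 0.843 and 0.814 CPM at 4W (log2 change 1.22 ± 0.29, adjusted p = 0.0027, edgeR). Nr1d2, which encodes REV-ERB beta, had 119.9, 147 and 120.3 CPM at 8W, against 76.6, 82.4 and 82.9 CPM at 4W (log2 change 0.68 ± 0.09, adjusted p = 2.0e-06, edgeR). Neither gene's groups overlapped, though Ciart was low at both ages. Tef and Nfil3 changed by 0.54 ± 0.09 and 0.46 ± 0.11, while Per1, which is also an immediate early and glucocorticoid-induced gene, fell by 0.43 on the log2 scale (adjusted p = 0.0075, edgeR).

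Of 16 glucocorticoid response genes, 3 rose and 3 fell (18.8% each, median 0.11), against 11.8% and 12.1% of all genes. Fkbp5, a co-chaperone of the receptor that glucocorticoids induce, had 38, 46.3 and 33.3 CPM at 8W, against 17.1, 20.5 and 17.2 CPM at 4W (log2 change 1.10 ± 0.27, adjusted p = 0.0049, edgeR), while Dusp1 and Per1, given above, fell. The list as a whole thus had no common direction.

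Lipid synthesis genes leaned downwards. Of 24 genes of cholesterol synthesis and uptake, 6 fell (25%) and 2 rose (8.33%), against 12.1% and 11.8% of all genes (median -0.20). With library size alone 12 fell. Without 8W replicate 1, 8W replicate 2 or 4W replicate 3, and with library size alone, 1 rose. Sqle, the squalene epoxidase, had 1.76, 1.28 and 2.27 CPM at 8W, against 5.78, 3.37 and 5 CPM at 4W (log2 change -1.40 ± 0.27, adjusted p = 5.3e-04, edgeR). Stard4, a cholesterol carrier, changed by -0.91 ± 0.14. Fdft1, the squalene synthase, went the other way, with 42, 38.1 and 39 CPM at 8W, against 21.9, 20.5 and 23.3 CPM at 4W (log2 change 0.86 ± 0.09, adjusted p = 5.9e-08, edgeR), and its groups did not overlap.

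Of 16 fatty acid synthesis genes, 6 fell (37.5%) and 3 rose (18.8%), against 12.1% and 11.8% of all genes (median -0.24), with 3 fallers without 8W replicate 3 or 4W replicate 1. The desaturase Scd2 had 61, 45.7 and 65.1 CPM at 8W, against 105, 106 and 98 CPM at 4W, and the ATP citrate lyase Acly had 87.9, 72.4 and 78.3 CPM at 8W, against 118, 105 and 92.1 CPM at 4W (log2 changes -0.85 ± 0.13 and -0.40 ± 0.08). Acacb and Me1 rose, by 0.50 ± 0.09 and 0.49 ± 0.07. Acacb makes the malonyl-CoA that brakes carnitine palmitoyltransferase at the mitochondrion.

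Markers of vessel wall cells fell more often than they rose. Of 16 blood endothelial markers, 11 fell and 1 rose (median -0.30), but 6 fell without 8W replicate 3, 4W replicate 1 or 4W replicate 2, and 2 fell without both 4W replicates 1 and 2. The riser lost its call without 8W replicate 2 and without any 4W library. The summed level of these markers was 4030, 4490 and 4040 CPM at 8W, against 4250, 4530 and 4190 CPM at 4W, with overlapping groups. Aplnr, the apelin receptor, had 52.5, 40.1 and 50.6 CPM at 8W, against 102, 103 and 92.7 CPM at 4W (log2 change -1.06 ± 0.11, adjusted p = 1.8e-08, edgeR), and Cdh5, the endothelial cadherin, had 278, 268 and 294 CPM at 8W, against 399, 441 and 454 CPM at 4W (log2 change -0.62 ± 0.08, adjusted p = 1.3e-06, edgeR). Cldn5, a tight junction claudin, changed by -0.75 ± 0.16. Of 13 mural cell markers, 5 fell (38.5%) and 2 rose (15.4%), against 12.1% and 11.8% of all genes (median -0.38). With library size alone 8 fell and 0 rose. Without 8W replicate 2, 8W replicate 3, 4W replicate 1 or 4W replicate 2, 1 rose. Beside Acta2, the smooth muscle genes Cnn1 and Tagln changed by -0.94 ± 0.11 and -0.60 ± 0.15, and Pdgfrb of pericytes by -0.51 ± 0.09.

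Of 12 epicardial and mesothelial markers, 7 fell and 0 rose (median -0.63). The summed level of the 12 was 81.3 to 94.1 CPM at 8W, against 128 to 155 CPM at 4W. Krt8 had 1.85, 1.85 and 1.32 CPM at 8W, against 10, 6.51 and 4.73 CPM at 4W (log2 change -2.08 ± 0.21, adjusted p = 2.3e-08, edgeR), and Krt19 had 2.96, 3.78 and 3.31 CPM at 8W, against 13.8, 10.7 and 8.13 CPM at 4W (log2 change -1.69 ± 0.23, adjusted p = 1.1e-05, edgeR). The keratins were highest in 4W replicate 1, which also held the most airway RNA, and airway epithelium makes them too; the part of that RNA was not tested. Msln, the mesothelial surface protein mesothelin, had 7.54, 6.99 and 8.06 CPM at 8W, against 16.9, 15.6 and 16.5 CPM at 4W (log2 change -1.12 ± 0.18, adjusted p = 3.6e-05, edgeR), and in it the 4W libraries were level with each other. In 4W replicate 3, where Scgb1a1 was at 0, Krt8 had 4.73 CPM and Krt19 had 8.13 CPM. The naming rule required that the groups of Krt19 did not overlap.

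Blood and immune transcripts gave mixed results. Of 12 erythroid and platelet markers, 8 fell and 1 rose (median -1.47), and 5 fell without 4W replicate 2. The riser, the platelet integrin gene Itga2b, lost its call without any of the 8W libraries and without 4W replicate 1. Slc4a1, the band 3 anion exchanger of red cells, had 1.43, 2.08 and 2.79 CPM at 8W, against 6.97, 24.4 and 16.4 CPM at 4W (log2 change -2.92 ± 0.45, adjusted p = 9.1e-05, edgeR). Hbb-bs, an adult beta-globin gene, had 1029, 1259 and 1295 CPM at 8W, against 1767, 4963 and 3346 CPM at 4W (log2 change -1.49 ± 0.40, adjusted p = 0.01, edgeR), with an adjusted p of 0.075 without 4W replicate 2; globin paralogs share reads. Alas2, which starts heme synthesis in red cells, and the alpha-globin gene Hba-a2 changed by -1.63 ± 0.34 and -1.61 ± 0.39. Tent5c, a poly(A) polymerase that red cell precursors also make, had 16.1, 21.9 and 18.5 CPM at 8W, against 43.8, 97.3 and 73.8 CPM at 4W (log2 change -1.93 ± 0.28, adjusted p = 5.2e-05, edgeR). Every 8W library was below every 4W library in these genes, which the naming rule required of Slc4a1 and Tent5c. In all of these genes 4W replicate 2 was the highest.

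Of 16 macrophage markers, 1 rose and 1 fell (6.25% each, median 0.00), against 11.8% and 12.1% of all genes. These were Lyz2, not called in 5 of the 6 fits that left out a library, and Mrc1. Mrc1 was not called without 8W replicate 2 or 4W replicate 1. Csf1r, the growth factor receptor of the lineage, had 104, 105 and 110.2 CPM at 8W, against 111, 109 and 108 CPM at 4W (log2 change -0.04 ± 0.09, adjusted p = 0.81, edgeR). Cx3cr1, the fractalkine receptor of monocytes and some tissue macrophages, was no member of that list and fell, with 4.44, 3.02 and 4.51 CPM at 8W, against 18.9, 16.4 and 14.7 CPM at 4W (log2 change -2.07 ± 0.16, adjusted p = 1.0e-10, edgeR). Of 20 antigen presentation genes, 4 rose (20%, against 11.8% of all genes) and 0 fell, and all 4 belong to class II. H2-Aa had 50.1, 39.7 and 42.4 CPM at 8W, against 29.8, 19.6 and 16.7 CPM at 4W (log2 change 1.00 ± 0.19, adjusted p = 2.7e-04, edgeR), H2-Eb1 and H2-Ab1 changed by 1.02 ± 0.20 and 0.84 ± 0.18, and Cd74, the invariant chain, by 0.69 ± 0.18. Among the 4W libraries, replicate 1 was the highest in these genes, and without it 8 genes of the list rose. Of 27 interferon response genes, 0 rose and 3 fell (11.1%, against 12.1% of all genes) in edgeR's test. With library size alone 7 fell, where 3764 of all 19280 genes did.

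The markers of lymphocytes, nerve, fast skeletal muscle and lung given here were low, and their source was not tested. Prlr, Kit and Xist are given with them. Rag1, a recombinase of developing lymphocytes, had 0, 0.0756 and 0 CPM at 8W, against 0.108, 0.843 and 0.62 CPM at 4W; Th of sympathetic neurons had 0, 0 and 0.0399 CPM at 8W, against 0.0722, 0.291 and 0.31 CPM at 4W and lost its call without 8W replicate 1, 8W replicate 2 or 4W replicate 2. Ngfr, a neurotrophin receptor of Schwann cells, fell to 0.925, 0.34 and 0.997 CPM at 8W, against 2.24, 2.99 and 1.9 CPM at 4W (log2 change -1.69 ± 0.26, adjusted p = 1.4e-05, edgeR). Tnni2, the fast skeletal troponin I, had 1.9, 2.57 and 2.99 CPM at 8W, against 4.91, 5.55 and 6.82 CPM at 4W (log2 change -1.20 ± 0.22, adjusted p = 1.4e-04, edgeR), while the skeletal myosins Myh3 and Myh4 were at 0 in all 6 libraries. Of 6 lung epithelium markers tested, 3 fell, and without 4W replicate 1 0 fell; Sftpa1 had 0, 0 and 0 CPM at 8W, against 0.614, 0.174 and 0 CPM at 4W. Prlr, the prolactin receptor, rose, with 17.4, 18.5 and 20 CPM at 8W, against 9.96, 9.54 and 9.18 CPM at 4W (log2 change 0.96 ± 0.16, adjusted p = 7.3e-05, edgeR), and Kit, a receptor of mast cells and some endothelial cells, changed by -0.49 ± 0.12. Xist, the RNA that coats the inactive X chromosome, had 215, 256 and 200.4 CPM at 8W, against 461, 475 and 428 CPM at 4W; its groups did not overlap, but the fit over all ages gave an SE of 2.18 and an adjusted p of 0.78 (edgeR), against 1.5e-06 in a fit of the 6 libraries alone.

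**Figure D4:**
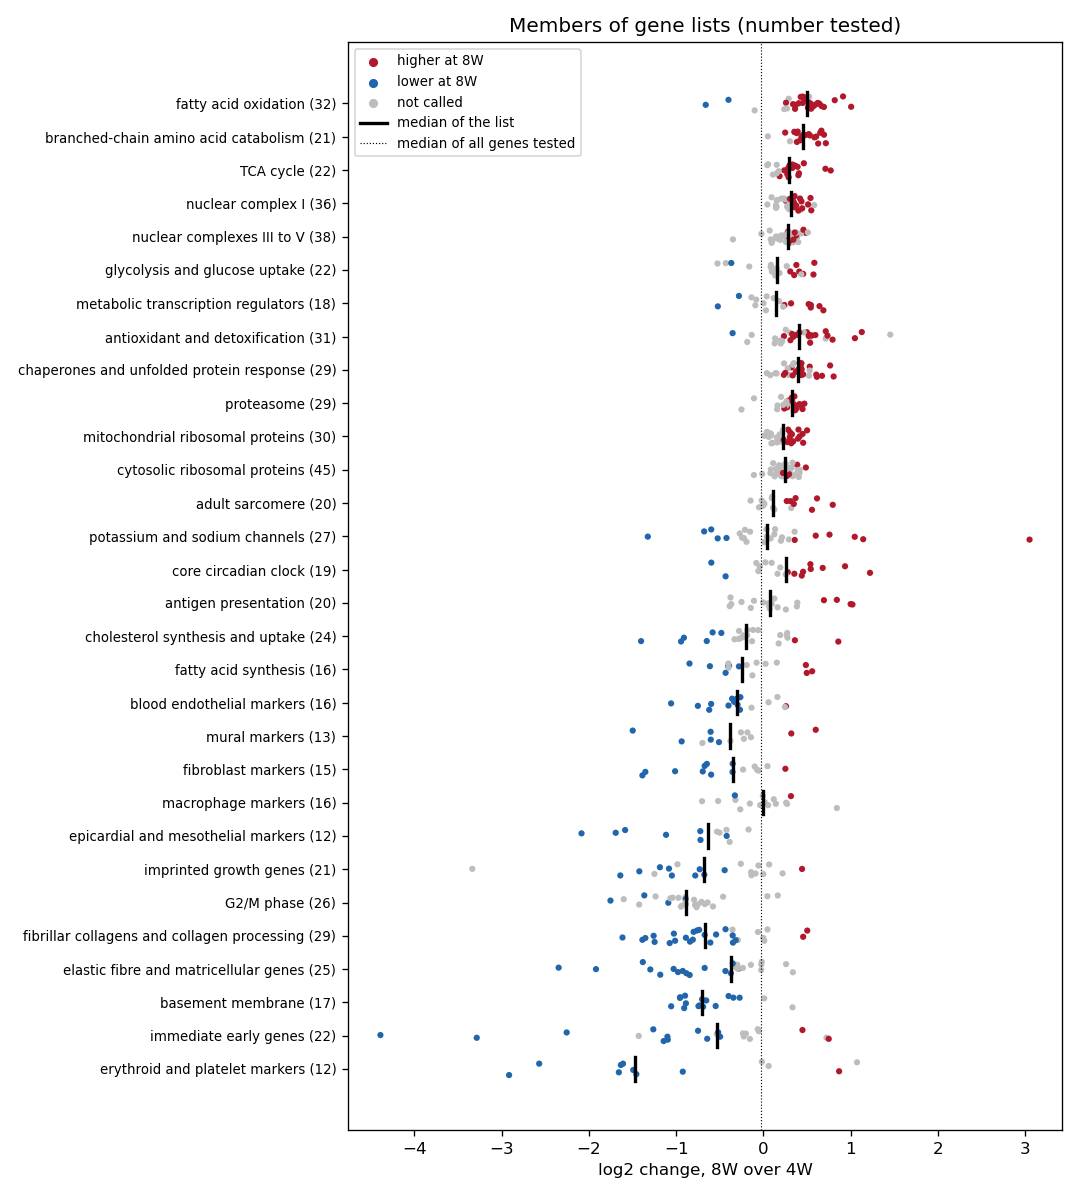
Each point is the log2 change (8W over 4W) of a list member that was tested, coloured red where it rose, blue where it fell and grey where it was not called, with a black bar at each list's median and a dotted line at the median of all genes (-0.03). The medians of the fuel, protein quality and respiratory lists lie right of that line, and those of the matrix, growth, immediate early and red cell lists lie left of it.

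To see whether the changes after weaning were those of the earlier postnatal step, the 8W against 4W change was tested against the 2W against 1W change in the same fit. These steps share no libraries, and the earlier step alone had 5708 genes called (29.6%). All 6 libraries at 8W and 4W held Xist (at least 200 CPM) with Ddx3y, Eif2s3y, Kdm5d and Uty at 0, the pattern of female tissue. At 1W and 2W Xist was uneven among the libraries, at 753.5 ± 660.1 and 286.2 ± 493.6 CPM (SD, n = 3). The part of sex in the differences between the steps was not tested. The changes differed for 3341 of 19280 genes (17.3%), with 1340 higher (6.95%) and 2001 lower (10.4%) in the later step (edgeR). With library size alone the split was 2502 higher and 1255 lower. Of a panel of 36 heart genes, 13 differed.

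Myh7 differed most: it fell by 4.12 on the log2 scale in 2W against 1W hearts and rose by 2.27 ± 0.23 in 8W against 4W hearts (difference 6.39 ± 0.33, adjusted p = 1.0e-11, edgeR). Its means were 579, 33.2, 42 and 202 CPM at 1W, 2W, 4W and 8W. The level at 8W was thus above that at 2W and 4W and below that at 1W. Cpt1b had log2 changes of 0.12 ± 0.09 in the earlier step and 0.51 ± 0.09 in the later (difference 0.38 ± 0.13, adjusted p = 0.035, edgeR), a call that ended in 8 of the 12 fits that left out a library of either step, 8W replicate 2 and each 4W library among them.

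Several matrix genes had a lower change in the later step. Col1a1 had log2 changes of -0.15 ± 0.13 in 2W against 1W hearts and -1.39 ± 0.14 in 8W against 4W hearts (difference -1.24 ± 0.19, adjusted p = 2.8e-05, edgeR). Eln had log2 changes of -0.74 ± 0.20 in the earlier step and -2.35 ± 0.21 in the later (difference -1.61 ± 0.29, adjusted p = 4.0e-04, edgeR), with means of 2500, 1495, 474 and 93.2 CPM at 1W, 2W, 4W and 8W. The values were 0.17 ± 0.12 and then -0.89 ± 0.12 for Col4a1 (difference -1.06 ± 0.17, adjusted p = 3.6e-05, edgeR). Other matrix genes did not pass this test: the differences were -0.04 ± 0.29, adjusted p = 0.96 for Postn of the panel, 0.38 ± 0.25, adjusted p = 0.34 for Tnc, 0.72 ± 0.28, adjusted p = 0.075 for Col11a1 and -0.33 ± 0.15, adjusted p = 0.14 for Fbn2 (edgeR). The changes of the step between, 4W against 2W, share the 4W libraries with the later step, so they are set beside it without a test: -1.11 ± 0.14 for Col1a1, -1.66 ± 0.21 for Eln and -0.38 ± 0.12 for Col4a1.

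Igf1 had log2 changes of 0.09 ± 0.10 in 2W against 1W hearts and -1.12 ± 0.10 in 8W against 4W hearts (difference -1.21 ± 0.14, adjusted p = 4.3e-07, edgeR), with -0.45 ± 0.10 in the step between. H19 and Mest had log2 changes of -1.53 ± 0.10 and -1.96 ± 0.14 in the earlier step and -1.19 ± 0.10 and -1.64 ± 0.15 in the later, and the differences of 0.35 ± 0.14, adjusted p = 0.085 for H19 and 0.32 ± 0.21, adjusted p = 0.32 for Mest did not pass the test (edgeR). Bdh1 was at 0.504, 1.17, 4.6 and 83 CPM at 1W, 2W, 4W and 8W. Fos was at 10, 4.69, 50.2 and 5.17 CPM at 1W, 2W, 4W and 8W, so its mean stood higher at 4W than at the 3 other ages. Junb (9.77, 10.7, 35.5 and 14.9 CPM) and Casq1 (22, 30.2, 71.6 and 23.65 CPM) also stood highest at 4W. Pdk4 was at 415, 1144, 371 and 746 CPM at these ages, lower at 4W than at 2W and 8W. The same shape was seen in Tef (78.4, 119.5, 66.4 and 96.5 CPM) and Nr1d2 (81.3, 118.5, 80.65 and 129 CPM).

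**Figure D5:**
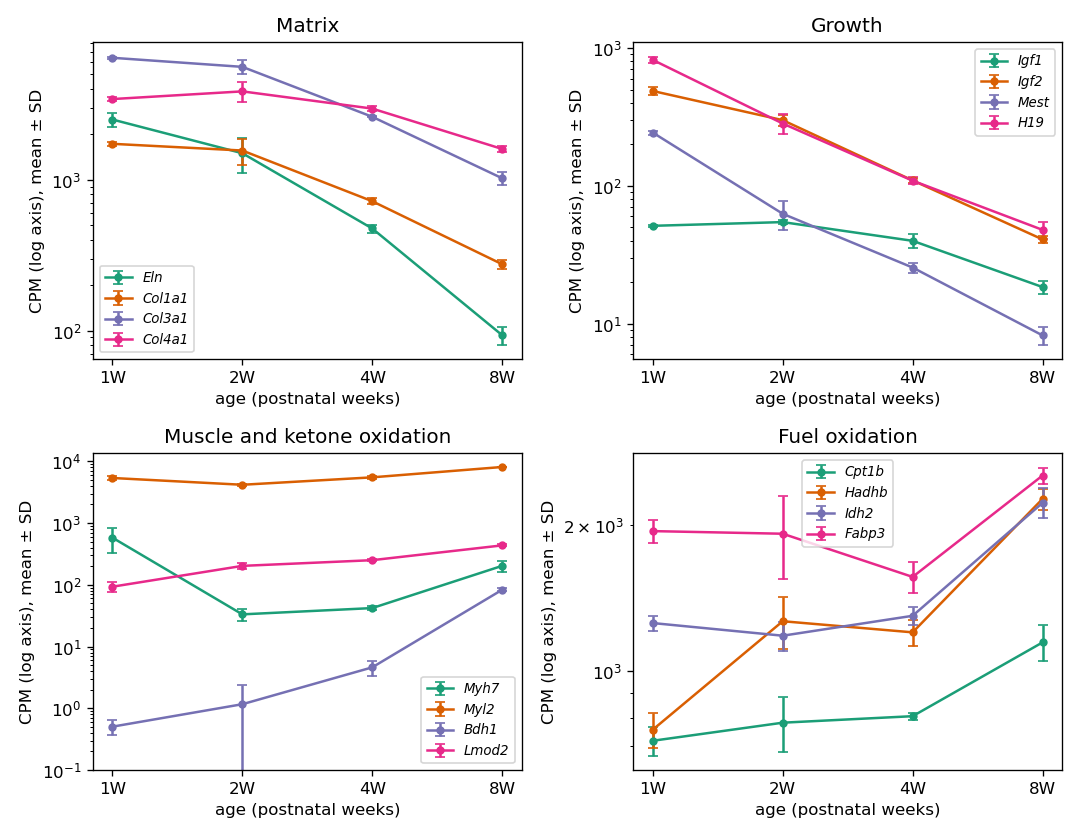
Mean CPM (log axis) ± SD of 3 libraries at 1W, 2W, 4W and 8W for matrix, growth, muscle and fuel genes; the lower bar of Bdh1 at 2W leaves the axis because its SD exceeds its mean. Col1a1 and Col3a1 are lower at 4W than at 2W and lowest at 8W, Myh7 is lowest at 2W, and Hadhb, Idh2, Fabp3 and Cpt1b are highest at 8W.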

How the data were processed

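Poly(A) RNA was sequenced in 30 mouse heart libraries. The deposited table holds estimated counts (expected counts) per gene, made by the authors. Build GRCm38 (mm10) is listed in the submitters' processing notes, along with the tools STAR 2.5.3a and fastp 0.18.0. How genes were counted, on which annotation release and with which strand setting is not given in the sources used here. Overlapping, antisense and near-identical genes (Myh6 and Myh7, globins, class II genes, Ccl21a) are therefore uncertain. Of the values, 6.94% were not whole within a tolerance of 1e-06, and all were rounded. Symbols and coordinates came from GENCODE M21 by gene ID, matching 48144 of 48820 genes.

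In R 4.3.3, edgeR 4.0.16 kept 19280 genes (filterByExpr), applied TMM factors and fitted 10 age means over all 30 libraries with robust quasi-likelihood. P-values were adjusted by Benjamini-Hochberg over all genes, and a gene was called under 0.05. Each SE is the size of the log2 change over the root of its F statistic. On simulated data for 8W against 4W, 53.7%, 92.5% and 100% of the 67, 67 and 66 genes changed 1.5-, 2- and 4-fold were recovered. There were 7 false calls in that fit, which held 19038 genes with the changed ones included. The changed genes were drawn above a low CPM floor at 4W and were far fewer than those called in the data. Library totals over all ages were 23164934 to 50519452 counts. Shares of counts were compared by an exact permutation test.

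Genes were named by a fixed rule (12 risers and 12 fallers of largest change, called, without overlap and averaging 10 CPM or more at 1 of the ages, then a heart panel and the list members that changed most). Further list members were picked, and those with stable calls preferred, after their values were seen; some genes the rule names are not reported here. The members and lists were chosen with earlier results of these data known. Alternatives were other scalings and filters, DESeq2 1.42.0, a replicate block, the compared libraries alone, and each library left out.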

Additional observations from a re-analysis of the deposited data

Results flagged for a closer look

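For 13 genes of a panel of 36, of which 12 are given here, the change in 8W against 4W hearts differed from the change in 2W against 1W hearts, as tested within the same fit (edgeR quasi-likelihood, adjusted over all genes). The later change was the higher for Myh7 (difference of log2 changes 6.39), the slow myosin heavy chain, and for Cpt1b (0.38). It was the lower for C4b (-1.81), Eln (-1.61), Col1a1 (-1.24), Igf1 (-1.21), Col3a1 (-1.15), Scd1 (-1.12), Col4a1 (-1.06), Ccl21a (-0.86), Igf2 (-0.72) and Myh6 (-0.50).

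C4b, a complement component, Ccl21a, a lymphatic chemokine with near-identical copies, and Scd1, a desaturase, rose in the earlier step (1.74 ± 0.28, 0.67 ± 0.17 and 1.15 ± 0.27) and did not pass the test in the later (-0.07 ± 0.25, -0.20 ± 0.16 and 0.03 ± 0.25). Col3a1 was at -0.20 ± 0.10 and then at -1.35 ± 0.10. The 8W and 4W groups overlapped for C4b, Ccl21a, Scd1 and Myh6.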

How the results depend on the processing

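Scaling by library size alone gave 800 rising and 3764 falling genes, 88 rising at least 2-fold, and 2502 higher and 1255 lower changes than in the 2W against 1W step. Without 4W replicates 1 and 2, an alternative chosen after the data were seen, there were 511 risers and 706 fallers, of which 64 and 249 passed 2-fold, and 537 changes were higher and 970 lower than in the earlier step. With each library left out in turn, 1508 to 1745 genes rose, lowest without 4W replicate 1; fewer samples were then fitted, and for the other shifts the cause was not tested.

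Some genes changed sign. Of those named here, Scgb1a1 and Sftpa1 were called as falling with all libraries (log2 changes -9.28 and -6.17), and the others were not called. With library size alone the log2 changes were -0.15 for Myh6, -0.13 for Nppa, -0.13 for Scd1 and -0.11 for Dcn. With upper quartile factors they were -0.05, -0.03, -0.02 and 0.00 for these 4 genes. Myh6 was at -0.01 with a stricter filter and -0.02 with only the libraries compared. Without 4W replicates 1 and 2, values were -0.12 for Myh6, -0.06 for Nppa, 3.06 for Scgb1a1, 0.00 for Sftpa1, 0.32 for C4b and 0.10 for Pdgfra. With single libraries left out, Myh6 ran from -0.05 to 0.06, Nppa from -0.07 to 0.10, Scd1 from -0.21 to 0.26 and C4b from -0.24 to 0.09. Of 162 gene results, called or not, 114 kept both their sign and their call, or lack of a call, in every alternative. Members with stable calls were preferred when some of these genes were picked, so this share does not stand for all genes. Of all called genes, 1167 of 2275 risers and 1134 of 2326 fallers were called in all 6 fits that left out a library.

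With the replicate block, 2412 genes rose and 2408 fell. Deviations of same-numbered 8W and 4W libraries correlated at 0.009, -0.015 and -0.004 over the genes tested. Such values cannot exclude a link that acts on few genes, and the labels name none. Transcripts under about 1 CPM, such as Rag1, Th and Sftpa1, rest on few counts.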
